A study of Rattus norvegicus with 4 samples.

Results

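What phenamil added to trichostatin A (TSA) was described from 1 pair of RNA libraries out of the 4 in the series: senescent rat mesenchymal stem cells given TSA and phenamil together, set against senescent cells given TSA without phenamil. The pair is defined by its labels, as the libraries that differ by phenamil, and not by measured values. Of 34034 listed genes, 12228 had at least 40 counts over the 4 libraries and were compared; 40 of them sat exactly at 40 counts, and 38 genes with 39 counts were left out. All 4 libraries came from cells labelled as femur mesenchymal stem cells, kept in osteogenic induction medium and sampled on day 1. The TSA + phenamil library and the TSA library were senescent cells treated for 24 h. The senescent control and the young control received vehicle and are given beside the pair as description. Each condition was 1 library, and the sample labels set no batches apart. No library held phenamil alone, so what is described is phenamil on top of TSA. With 1 library per condition, a difference due to phenamil and a difference between cultures cannot be told apart. The sample labels name the added compound as phenamil, the series title names phenamil methanesulfonate, and the design text names benzyl ether; the sample labels were followed. The sources used here state neither the doses nor how the cells became senescent.

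TSA inhibits histone deacetylases, enzymes that remove acetyl groups from histone tails, and so changes how accessible chromatin is. Phenamil is a derivative of the diuretic amiloride and blocks epithelial sodium channels. It is also known to favour bone formation: it was described to raise the pseudokinase Trib3, which lowers the ubiquitin ligase Smurf1 and thereby spares the SMAD proteins that carry the bone morphogenetic protein (BMP) signal. BMP signalling drives Runx2, the transcription factor that commits stromal cells to the osteoblast lineage, and induces Id1, Id2 and Id3 as early targets.

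The libraries held 10720172 counts with TSA + phenamil, 9873894 with TSA, 11024227 in the senescent control and 10905230 in the young control, from a kit that reads the 3' ends of polyadenylated RNA. All 10 stromal markers had enough counts to be compared. They were unevenly counted: Thy1 had 8431, 7752, 8301 and 8430 counts in the same order of libraries, Nt5e 126, 163, 119 and 112, and Eng 23, 20, 22 and 18. Of 13 haematopoietic markers only Cd14 had enough counts to be compared, at 83, 85, 64 and 57 counts in the same order of libraries, and their summed level was 9.43, 10.6, 5.81 and 5.14 CPM. Of the endothelial markers Pecam1 had 0 counts in all 4, while Egfl7 had 197, 209, 198 and 312. Of the epithelial ones Cldn4 and Esrp1 had 0 in all 4, while Krt8 had 121, 199, 170 and 105. Of the mature osteoblast genes, Sp7 and Ibsp were at 0. Cartilage markers were uneven. Col9a1 had 12634, 11739, 13322 and 12734 counts, Acan 3357, 3231, 4180 and 3983, and Col2a1 1115, 932, 1154 and 1130. The other listed ones were low: Col10a1 had 0, 2, 2 and 5 counts, and Matn3 2, 4, 5 and 11. Chad had 0, 0, 1 and 0, and Ucma 17, 20, 14 and 16. In bulk RNA, fewer cells of a type and less RNA per cell cannot be told apart.

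The difference between both libraries was broad and shallow. Each gene is given as the ratio of its scaled level with TSA + phenamil over its level with TSA, followed in parentheses by its exact 95% counting interval; levels are CPM, counts scaled to a common library size. The intervals cover counting error only, and with 1 library per side no spread between cultures and no p-value could be had, so the values describe these 2 libraries. A gene is called higher or lower where its interval excludes 1. By that rule 2029 genes were higher (16.6% of those compared) and 2094 lower (17.1%), 33.7% in all. The counts of list members given below are to be read beside these shares. The whole interval lay beyond 1.5-fold for 124 higher genes (1.01%) and 99 lower genes (0.81%), and beyond 2-fold for 30 higher (0.245%) and 20 lower (0.164%). Of the genes beyond 2-fold, 21 of the higher and 12 of the lower had fewer than 100 counts in the pair. With the libraries scaled by their total counts instead of the trimmed mean of M-values (TMM), 20 genes were higher and 23 lower beyond 2-fold, 105 and 114 beyond 1.5-fold, and 1658 and 2528 by the interval alone.

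**Figure D1:**
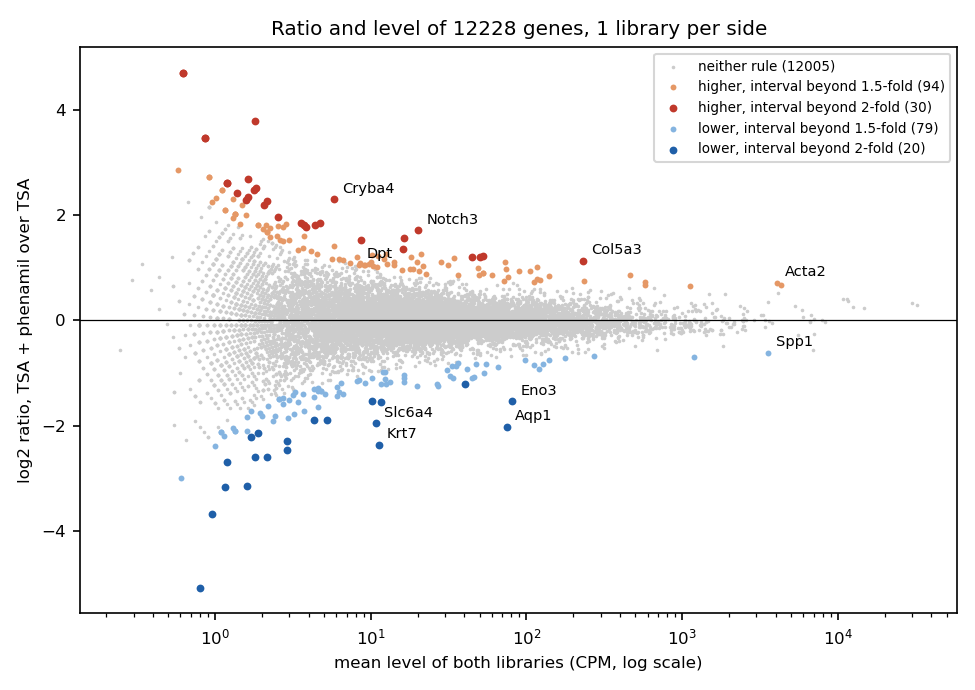
Each point is 1 of 12228 genes, with its mean level in both libraries (CPM, log scale) on the horizontal axis and its log2 ratio of TSA + phenamil over TSA on the vertical axis; colours mark intervals wholly beyond 1.5-fold or 2-fold. The far points are mostly genes of low level, and Aqp1, Eno3 and Col5a3 stand out at higher levels.

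The median log2 ratio over all genes was 0.00, with quartiles of -0.20 and 0.21. Deeper genes passed the interval rule more often: of 3178 genes with at least 1000 counts in the pair, 24.9% were higher and 29.4% lower. Over 5270 genes whose counts reached 1000 across the 4 libraries, the standard deviation of the log2 ratio was 0.240 for TSA + phenamil over TSA. In the other pairs of libraries it was 0.200 for TSA + phenamil over the senescent control, 0.195 for TSA over the senescent control, 0.199 for TSA + phenamil over the young control, 0.293 for TSA over the young control and 0.209 for the senescent over the young control. The TSA + phenamil and TSA libraries thus lay further apart than either lay from the senescent control. Ratios beyond 1.5-fold numbered 130 in this pair, 46 for TSA + phenamil over the senescent control and 41 for TSA over the senescent control. These pairs share libraries, and their values are given side by side.

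Genes with at least 100 counts in the pair were ranked by whichever interval bound lay closer to a ratio of 1, and the 9 higher genes beyond 2-fold are described first. Cryba4, which encodes a beta-crystallin of the lens, had 9.71 CPM with TSA + phenamil, 1.92 CPM with TSA, 3.995 CPM in the senescent control and 8.38 CPM in the young control, a ratio of 5.07 (3.09 to 8.77). Its gene overlaps Crybb1, which had 11, 4, 3 and 9 counts in the same order. Notch3, a Notch receptor of mural cells, had 31.1 CPM with TSA + phenamil, 9.38 CPM with TSA, 15.98 CPM in the senescent control and 29.8 CPM in the young control, a ratio of 3.31 (2.62 to 4.22). Dpt, which encodes the dermal matrix protein dermatopontin, had 24.5, 8.17, 12.1 and 22.1 CPM in that order, a ratio of 2.997 (2.33 to 3.897). In all 3 genes the TSA library was the lowest of the 4, the senescent control came next, and the TSA + phenamil library was the highest. Hmcn1, which encodes the giant basement membrane protein hemicentin, had 73.9 CPM with TSA + phenamil, 31.7 CPM with TSA, 49.6 CPM in the senescent control and 91.6 CPM in the young control, a ratio of 2.33 (2.05 to 2.67). Here the young control, not the TSA + phenamil library, was the highest.

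Cilp, a cartilage intermediate layer protein gene, stood at 2.898 (2.05 to 4.17) and Smoc1, which encodes a basement membrane protein that modulates BMP signalling, at 2.59 (2.02 to 3.34). The spondin gene Spon1, at 2.32 (2.01 to 2.68), completed the 9 genes beyond 2-fold together with Col5a3 and Col12a1, described with the collagens. Further down came the olfactomedin-like matrix gene Olfml2b, the potassium channel gene Kcnd3, the smooth muscle myosin gene Myh11, Filip1l, the phospholipase gene Plcb4 and Col15a1, with ratios between 2.03 and 2.41. Filip1l overlaps Cmss1, which had 119 counts with TSA + phenamil and 148 with TSA, so Cmss1 itself was not higher. In each of these 15 genes the TSA library was the lowest of the 4.

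The lower side of the ranking was led by membrane transporters, an epithelial keratin and a muscle enolase. Krt7, a keratin of simple epithelia, had 3.62 CPM with TSA + phenamil, 18.9 CPM with TSA, 12.98 CPM in the senescent control and 4.42 CPM in the young control, a ratio of 0.192 (0.132 to 0.273). Aqp1, the water channel aquaporin-1, had 29.6 CPM with TSA + phenamil, 120.4 CPM with TSA, 80.6 CPM in the senescent control and 32.9 CPM in the young control, a ratio of 0.246 (0.217 to 0.279). Slc6a4, the serotonin transporter, had 4.38, 17.1, 9.71 and 6.94 CPM in that order, a ratio of 0.256 (0.180 to 0.356). For each of them the TSA + phenamil library was the lowest of the 4 and the TSA library the highest. Areg, which encodes the growth factor amphiregulin, stood at 0.265 (0.159 to 0.425), the laminin-332 chain gene Lamb3 at 0.339 (0.249 to 0.455), and Slc29a1, an equilibrative nucleoside transporter gene, at 0.4295 (0.369 to 0.499). The transfer RNA gene Trnap-agg_18 stood at 0.344 (0.248 to 0.471). The kit reads polyadenylated RNA, and which transcript gave the reads counted for Trnap-agg_18 was not tested. Tuba4a, Mybl1, Ppp2r2c, Smoc2, Ccbe1, Tdp1 and Slc16a3 followed, with ratios between 0.365 and 0.474. The TSA library was the highest of the 4 in all 15. Ranking genes by their distance between TSA + phenamil and TSA itself favours genes in which TSA lies at an end, for the higher side too, so these positions are a description.

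**Figure D2:**
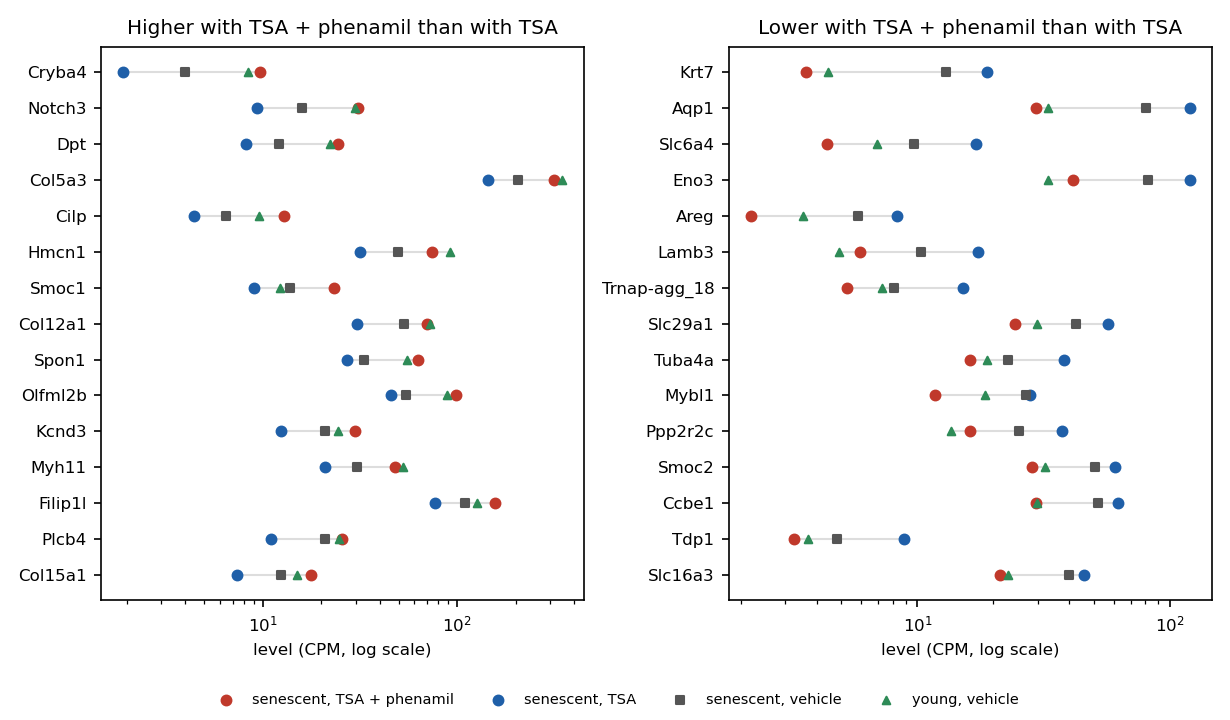
Levels (CPM, log scale) of the 15 highest and 15 lowest ranked genes in the 4 libraries, 1 point per library: senescent with TSA + phenamil, senescent with TSA, senescent with vehicle and young with vehicle. In each of the 30 genes the TSA library lies at 1 end: lowest for the higher genes and highest for the lower ones, a position that the ranking itself favours.

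The genes of the axis described for phenamil were compared at the level of RNA only. Whether the axis acted on SMURF1 or SMAD protein was not tested. Trib3 had 158 CPM with TSA + phenamil, 158 CPM with TSA, 176 CPM in the senescent control and 192 CPM in the young control, a ratio of 1 (0.933 to 1.07). Smurf1, the ubiquitin ligase that marks BMP-responsive SMADs for destruction, had 28.0, 21.2, 22.9 and 29.0 CPM in that order and was higher, at 1.32 (1.10 to 1.59). Its relative Smurf2 stood at 0.953 (0.856 to 1.06). Over the 5 genes of this list (Trib1, Trib2, Trib3, Smurf1 and Smurf2), 1 was higher, none was lower by the interval rule, and the median log2 ratio was 0.00. The channel that phenamil blocks was close to undetected: Scnn1a had 3, 7, 2 and 9 counts, Scnn1b 0 in all 4 libraries, and Scnn1g 0, 4, 0 and 0. A count of 0 allows up to 0.286 CPM with TSA + phenamil and 0.302 CPM with TSA. The acid-sensing channel gene Asic1 had 1, 0, 0 and 2 counts.

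Of 28 listed sodium channels, exchangers and pump subunits, only 12 had enough counts to be compared. Of these 12, 1 was higher and 4 lower, beside 16.6% higher and 17.1% lower over all genes. Their median log2 ratio was -0.03. Among the 4 lower ones were Slc12a2, the sodium-potassium-chloride cotransporter, at 0.668 (0.618 to 0.722), and the sodium pump subunit genes Atp1b1 at 0.779 (0.720 to 0.843) and Atp1b3 at 0.908 (0.840 to 0.981). Atp1b1 overlaps Nme7, which had 120 counts with TSA + phenamil and 127 with TSA. Slc12a2 had 105 CPM with TSA + phenamil, 157 CPM with TSA, 148 CPM in the senescent control and 112 CPM in the young control. The TSA library held the highest of these levels and the TSA + phenamil library the lowest.

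Of 18 BMP ligands, receptors and antagonists compared, 9 were higher and 1 lower, beside 16.6% higher and 17.1% lower over all genes, with a median log2 ratio of 0.24. Bmp2, an osteoinductive ligand, had 37.1 CPM with TSA + phenamil, 22.99 CPM with TSA, 25.9 CPM in the senescent control and 37.5 CPM in the young control, a ratio of 1.62 (1.37 to 1.91). Bmp3 stood at 1.55 (1.19 to 2.01), the activin and BMP receptor gene Acvr2a at 1.55 (1.17 to 2.08) and Bmp4 at 1.15 (1.09 to 1.21). Fst, the secreted antagonist follistatin, was the lower member, with 105 CPM with TSA + phenamil, 176 CPM with TSA, 124 CPM in the senescent control and 80.7 CPM in the young control, a ratio of 0.596 (0.553 to 0.644). For both Bmp2 and Fst the TSA value lay furthest from the young control. For Bmp4 and Acvr2a it was the TSA + phenamil value that did so: Bmp4 had 352 CPM with TSA + phenamil, 306.5 CPM with TSA, 277 CPM in the senescent control and 206.5 CPM in the young control, and Acvr2a had 12.4, 7.96, 9.72 and 6.85 CPM. Acvr2a overlaps Orc4, which had 222 counts with TSA + phenamil and 253 with TSA.

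Of 13 BMP targets and feedback inhibitors, 2 were higher and 6 lower, beside the same shares over all genes, with a median log2 ratio of -0.29. Id1, an inhibitor of basic helix-loop-helix factors and a direct SMAD target, had 73.2 CPM with TSA + phenamil, 123.6 CPM with TSA, 87.98 CPM in the senescent control and 71.9 CPM in the young control, a ratio of 0.593 (0.541 to 0.649). Id2 stood at 0.749 (0.649 to 0.865), Id3 at 0.876 (0.824 to 0.931) and the inhibitory SMAD gene Smad7 at 0.747 (0.581 to 0.958). Smad6, another inhibitory SMAD, had an interval that included no change, at 1.14 (0.996 to 1.31). The 2 higher members were Hey1, also a Notch target, at 1.62 (1.24 to 2.12), and the BMP antagonist noggin (Nog), at 1.54 (1.18 to 2.001). Noggin and Hey1 had fewer than 20 CPM in each library.

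**Figure D3:**
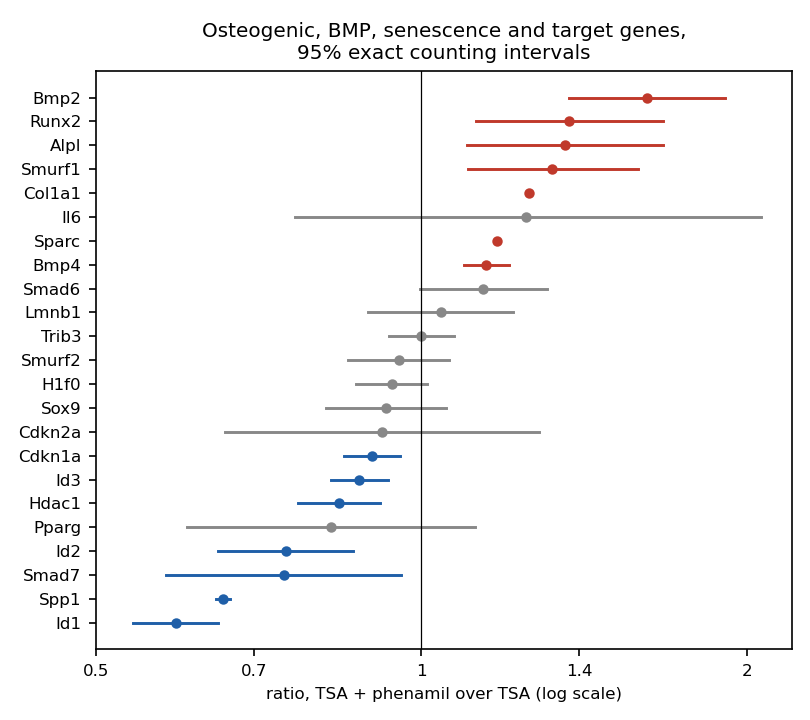
Ratio of TSA + phenamil over TSA (log scale) with its 95% exact counting interval for selected BMP, osteogenic, senescence and target genes, sorted by ratio. Bmp2, Runx2, Alpl and Smurf1 lie to the right of no change, Id1, Spp1, Smad7 and Id2 to the left, and Trib3 on it.

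Osteogenic genes were mixed, and most of their transcription factors had intervals that included no change. Runx2 had 23.6 CPM with TSA + phenamil, 17.2 CPM with TSA, 19.6 CPM in the senescent control and 26.8 CPM in the young control, a ratio of 1.37 (1.12 to 1.68). It overlaps Supt3h, which had 110 counts with TSA + phenamil and 88 with TSA, and a long non-coding RNA with 15 and 3 counts. The stress-responsive osteoblast factor gene Atf4 stood at 1.05 (1.02 to 1.09), and the other 7 of 9 compared osteoblast transcription factors had intervals that included no change, among them Twist1 and Msx1. Alpl, the alkaline phosphatase that releases phosphate for mineral, had 21.6, 15.9, 19.2 and 17.5 CPM in that order, a ratio of 1.36 (1.10 to 1.67). The TSA + phenamil library held the highest Alpl level and the TSA library the lowest.

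Of 11 compared genes of osteoblast matrix and mineral, 4 were higher and 3 lower, beside 16.6% higher and 17.1% lower over all genes. Spp1, which encodes osteopontin, a secreted phosphoprotein that binds mineral, had 2828 CPM with TSA + phenamil, 4316 CPM with TSA, 4194 CPM in the senescent control and 2333 CPM in the young control, a ratio of 0.655 (0.645 to 0.665). The other lower members were Enpp1, which makes the mineral inhibitor pyrophosphate, at 0.828 (0.795 to 0.862), and the phosphate transporter gene Slc20a1, at 0.880 (0.813 to 0.953). Higher were Alpl, the mineralization inhibitor gene Mgp at 1.27 (1.25 to 1.29), Tnfrsf11b, which encodes the osteoclast inhibitor osteoprotegerin, at 1.22 (1.15 to 1.29), and Sparc, which encodes osteonectin, at 1.18 (1.17 to 1.18). Thus the higher and the lower members each held genes known to favour and genes known to restrain mineral. The late osteoblast gene Bglap had 0, 0, 2 and 2 counts, beside Sp7 and Ibsp at 0. Of 15 compared cartilage genes, 5 were higher and 3 lower; Hapln1, which links aggrecan to hyaluronan, stood at 0.560 (0.495 to 0.633), and the master regulator gene Sox9 at 0.927 (0.816 to 1.05). Scx, a tendon transcription factor gene, was lower at 0.787 (0.722 to 0.857), and overlaps Bop1, which had 220 counts with TSA + phenamil and 212 with TSA. The fat-cell regulator gene Pparg stood at 0.825 (0.607 to 1.12).

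Collagen genes were the most one-sided group of the matrix. Of 17 compared, 15 were higher and 2 lower, beside 16.6% higher and 17.1% lower over all genes, and all 17 had intervals that excluded 1. Their median log2 ratio was 0.33, against 0.00 over all genes. Col5a3, a minor chain of fibrillar collagen V, had 316 CPM with TSA + phenamil, 143.7 CPM with TSA, 205 CPM in the senescent control and 347 CPM in the young control, a ratio of 2.20 (2.07 to 2.34). Col12a1, a fibril-associated collagen, had 70.3, 30.4, 53.4 and 72.8 CPM, a ratio of 2.31 (2.02 to 2.65). Col15a1, a collagen of basement membrane zones, stood at 2.41 (1.83 to 3.20). In Col5a3 and Col12a1 the TSA library was the lowest, the senescent control next, and the TSA + phenamil library below the young control.

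The abundant chains moved less. Col1a1 stood at 1.26 (1.25 to 1.27) and Col3a1 at 1.598 (1.58 to 1.62). Col3a1 had 5326 CPM with TSA + phenamil, 3333 CPM with TSA, 3942 CPM in the senescent control and 4922 CPM in the young control. Col8a2, of the short-chain collagen VIII, at 0.895 (0.850 to 0.942), and Col11a1, of cartilage-type fibrils, at 0.980 (0.962 to 0.998), were the lower members. The enzymes that process collagen did not share the lean: of 18 compared, 6 were higher, 6 lower and 6 neither. That was 33.3% higher and 33.3% lower, beside 16.6% and 17.1% over all genes. Among the higher were the procollagen N-peptidase gene Adamts2 at 2.17 (1.68 to 2.82), the procollagen C-peptidase gene Bmp1 at 1.64 (1.403 to 1.93) and the collagen chaperone gene Serpinh1 at 1.26 (1.23 to 1.28). Lower were the prolyl hydroxylation partner gene Crtap at 0.820 (0.772 to 0.872), the isomerase gene Ppib at 0.883 (0.845 to 0.922) and the lysyl hydroxylase gene Plod1 at 0.870 (0.802 to 0.943). Adamts2 had 19.2 CPM with TSA + phenamil, 8.87 CPM with TSA, 7.63 CPM in the senescent control and 16.7 CPM in the young control, so here the senescent control and not the TSA library was the lowest.

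Basement membrane genes had the highest median of the 54 lists, a log2 ratio of 0.52, although with ratios centred on genes of like span theirs was 0.39 and that of Notch genes 0.45. Of 19 compared, 11 were higher and 2 lower, beside 16.6% higher and 17.1% lower over all genes. Besides Hmcn1 and Smoc1, Col4a2, a chain of network-forming collagen IV, had 139 CPM with TSA + phenamil, 83.8 CPM with TSA, 88.9 CPM in the senescent control and 120.4 CPM in the young control, a ratio of 1.66 (1.53 to 1.81). The partner chain gene Col4a1 stood at 1.49 (1.38 to 1.595) and Nid1, which bridges laminin and collagen IV, at 1.54 (1.44 to 1.64). The lower members were its paralogue Nid2 at 0.815 (0.731 to 0.909) and Smoc2 at 0.468 (0.406 to 0.539). The calcium-binding relatives Smoc1 and Smoc2 therefore stood on opposite sides. Smoc2 had 28.4 CPM with TSA + phenamil, 60.6 CPM with TSA, 50.7 CPM in the senescent control and 31.9 CPM in the young control.

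Elastic fibre genes were mixed, with 8 of 20 higher, 4 lower and 8 neither, beside 16.6% higher and 17.1% lower over all genes. Fbln2 at 1.82 (1.74 to 1.897), Fbln5 at 1.64 (1.48 to 1.81) and Fbn1, which encodes the microfibril protein fibrillin-1, at 1.61 (1.55 to 1.67) were higher. Lox, the lysyl oxidase that crosslinks collagen and elastin, had 1530 CPM with TSA + phenamil, 2152 CPM with TSA, 2033 CPM in the senescent control and 1638 CPM in the young control, a ratio of 0.711 (0.697 to 0.726). Its relative Loxl3 stood at 0.690 (0.624 to 0.763) and the latent TGF-beta binding protein gene Ltbp1 at 0.636 (0.548 to 0.737). Loxl3 overlaps Htra2, which had 535 counts with TSA + phenamil and 598 with TSA. Loxl2, chosen after its value was seen, ran against Lox and Loxl3 at 1.19 (1.16 to 1.23).

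Small leucine-rich proteoglycans, which decorate collagen fibrils, included 6 higher members and 2 lower ones among 10 compared. Over all genes 16.6% were higher and 17.1% lower. The proteoglycans had a median log2 ratio of 0.27. Decorin (Dcn) stood at 1.51 (1.24 to 1.85), lumican (Lum) at 1.25 (1.18 to 1.34) and asporin (Aspn) at 1.25 (1.15 to 1.36), whereas fibromodulin (Fmod) stood at 0.737 (0.671 to 0.809) and Prelp at 0.644 (0.566 to 0.733). Among 22 matricellular genes 8 were higher and 6 lower, with a median log2 ratio of 0.03. Dpt, Cilp and Spon1 were above, Spp1 below, and thrombospondin-4 (Thbs4) stood at 0.550 (0.468 to 0.645). Thbs4 had 23.6 CPM with TSA + phenamil, 43.0 CPM with TSA, 30.3 CPM in the senescent control and 24.6 CPM in the young control. Among 26 matrix proteases and inhibitors 6 were higher and 8 lower, with Adamts12 at 1.59 (1.42 to 1.78), Adam19 at 2.13 (1.54 to 2.997), Serpine2 at 0.756 (0.722 to 0.791) and Timp1 at 0.880 (0.856 to 0.904).

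Smooth muscle contractile genes included 13 higher members and no lower one among 18 compared by the interval rule. Over all genes 16.6% were higher and 17.1% lower. The median log2 ratio of the contractile genes was 0.32. Acta2, which encodes alpha smooth muscle actin, had 5062 CPM with TSA + phenamil, 3070 CPM with TSA, 4508 CPM in the senescent control and 5204 CPM in the young control, a ratio of 1.65 (1.63 to 1.67). Myh11, smooth muscle myosin heavy chain, had 47.6, 20.9, 30.5 and 52.7 CPM, a ratio of 2.28 (1.94 to 2.696), and the enteric actin gene Actg2 stood at 2.18 (1.76 to 2.71). In all 3 the TSA library was the lowest. Not every contractile gene took part: Tagln stood at 1.004 (0.988 to 1.02), Myl6 at 0.995 (0.978 to 1.01) and Myocd, the cofactor that drives the programme, at 1.21 (0.983 to 1.49). The pericyte markers did not all go with them either: Pdgfrb stood at 1.83 (1.57 to 2.13), while Cspg4 stood at 0.669 (0.5998 to 0.746) and Rgs5 was at 0 counts in both libraries of the pair. Cspg4 overlaps Cimap1c, which had 427 counts with TSA + phenamil and 240 with TSA. Mcam stood at 1.017 (0.920 to 1.125), an interval that included no change. The potassium channel subunit gene Abcc9 was higher at 1.37 (1.009 to 1.87), with 106 counts with TSA + phenamil and 73 with TSA. Notch3, described above and also in the list of pericyte and smooth muscle markers, was higher.

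Targets of YAP and of serum response factor, which read out cytoskeletal tension, included 9 higher members and 3 lower ones among 15 compared, but their median log2 ratio was only 0.06. Pdlim7 at 1.35 (1.28 to 1.42), Tgfb1i1 at 1.27 (1.20 to 1.34) and Flna, which encodes the actin crosslinker filamin A, at 1.22 (1.19 to 1.25) were higher. The classic YAP target Ccn1 stood at 0.942 (0.906 to 0.980), and Axl at 0.831 (0.790 to 0.875). Integrin genes included 6 higher members and 3 lower ones among 15 compared, beside 16.6% higher and 17.1% lower over all genes. Itga8, the nephronectin receptor, had 15.6 CPM with TSA + phenamil, 6.65 CPM with TSA, 16.9 CPM in the senescent control and 14.9 CPM in the young control, a ratio of 2.35 (1.75 to 3.17); here the TSA library stood below 3 others that lay close together. The widely used beta subunit Itgb1 stood at 1.19 (1.17 to 1.22), and Itgb5 at 0.718 (0.690 to 0.747).

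Notch genes included 5 higher members and no lower one among 11 compared by the interval rule, with a median log2 ratio of 0.41. Over all genes 16.6% were higher and 17.1% lower. Next to the receptor Notch3, its ligand Jag1 had 117 CPM with TSA + phenamil, 61.2 CPM with TSA, 95.2 CPM in the senescent control and 116 CPM in the young control, a ratio of 1.91 (1.73 to 2.11). The targets Hey1 and Hey2 were higher, at 1.62 (1.24 to 2.12) and 1.33 (1.03 to 1.73), and Notch1 at 1.65 (1.13 to 2.45). Hes1, another target, stood at 0.955 (0.882 to 1.03) and Rbpj, the DNA-binding partner of cleaved Notch, at 0.957 (0.884 to 1.04). The Hey targets and Hes1 thus differed in whether their intervals excluded 1.

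Transforming growth factor beta (TGF-beta) genes included 8 higher and 4 lower members among 16 compared, beside 16.6% higher and 17.1% lower over all genes. The ligands did not move as 1 group. Tgfb2 stood at 1.42 (1.39 to 1.46), Tgfb3 at 1.36 (1.30 to 1.42) and the activin subunit gene Inhba at 1.44 (1.37 to 1.51), against Tgfb1 at 0.727 (0.606 to 0.871). Tgfb2 had 1760 CPM with TSA + phenamil, 1238 CPM with TSA, 1703 CPM in the senescent control and 1911 CPM in the young control. The receptors Tgfbr2 at 0.864 (0.793 to 0.942) and Tgfbr3 at 0.673 (0.485 to 0.931) were lower. Of 20 Wnt genes 6 were higher and 3 lower, beside the same shares over all genes. The receptor gene Fzd8 stood at 1.77 (1.59 to 1.96), the signal-enhancing Rspo3 at 1.72 (1.16 to 2.60) and the feedback inhibitor Axin2 at 0.435 (0.293 to 0.637), the last with 41 counts with TSA + phenamil and 89 with TSA.

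Among growth factors and receptors of the FGF, PDGF and VEGF families, 9 of 22 were higher and 5 lower. Over all genes 16.6% were higher and 17.1% lower. Pdgfrb was described above; Fgf9 stood at 1.73 (1.33 to 2.27), Dusp6, a feedback phosphatase of the ERK pathway, at 0.660 (0.623 to 0.6995) and Fgf7 at 0.587 (0.433 to 0.792). Dusp6 had 189 CPM with TSA + phenamil, 286 CPM with TSA, 206.5 CPM in the senescent control and 159.7 CPM in the young control. In the insulin-like growth factor axis, 5 of 10 were higher and 3 lower, with the protease gene Pappa at 1.65 (1.38 to 1.98) and the binding protein gene Igfbp6 at 1.38 (1.18 to 1.604).

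Keratin and epithelial genes had the lowest median of the 54 lists, a log2 ratio of -1.18, on only 6 compared genes. Of these, 4 were lower and none higher by the interval rule, beside 17.1% lower and 16.6% higher over all genes. The list was chosen with earlier results of these data known and holds Krt7, Areg and Lamb3 from the ranking above. Its median and counts are therefore a description and not an independent result. Krt8, another keratin of simple epithelia, had 11.5 CPM with TSA + phenamil, 20.06 CPM with TSA, 15.4 CPM in the senescent control and 9.47 CPM in the young control, a ratio of 0.574 (0.454 to 0.724). The keratin genes Krt18 and Krt19 had 0, 0, 5 and 0 counts and 0, 0, 1 and 0 counts in that order. Lamb3 had 5.90, 17.4, 10.3 and 4.87 CPM, while Lama3, which encodes another laminin chain, had an interval that included no change, at 0.810 (0.629 to 1.04). The defining epithelial genes were at or near 0: Epcam had 1, 0, 0 and 0 counts, Cdh1 2, 0, 0 and 0, and Cldn4 and Esrp1 none. The whole epithelial marker list summed to 11.8 CPM with TSA + phenamil, 20.06 CPM with TSA, 15.98 CPM in the senescent control and 9.47 CPM in the young control, nearly all of it Krt8.

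Genes of water, solute and purine transport included 7 lower members and 2 higher ones among 13 compared, with a median log2 ratio of -0.24. Over all genes 17.1% were lower and 16.6% higher. The lower side was led by Aqp1, Slc6a4, Slc29a1 and the lactate exporter Slc16a3, all of them in the ranking above. This list too was chosen with earlier results of these data known, so its median and counts are a description. Slc29a1 had 24.4 CPM with TSA + phenamil, 56.8 CPM with TSA, 42.7 CPM in the senescent control and 29.7 CPM in the young control. Running the other way were P2ry6, a receptor for uridine diphosphate, at 2.20 (1.499 to 3.295), and the cystine transporter gene Slc7a11 at 1.34 (1.13 to 1.59). P2ry6 had 8.67 CPM with TSA + phenamil, 3.93 CPM with TSA, 9.90 CPM in the senescent control and 6.76 CPM in the young control, so that the TSA library was the lowest.

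Glycolysis and hypoxia genes leaned lower: 20 of 32 compared members were lower and 2 higher, beside 17.1% lower and 16.6% higher over all genes, with a median log2 ratio of -0.29. Eno3, the muscle form of enolase, had 41.5 CPM with TSA + phenamil, 120.1 CPM with TSA, 82.3 CPM in the senescent control and 32.9 CPM in the young control, a ratio of 0.346 (0.309 to 0.386). It overlaps Spag7, which had 497 counts with TSA + phenamil and 413 with TSA. Slc16a3, which exports lactate, had 21.3, 45.8, 39.9 and 22.9 CPM, a ratio of 0.466 (0.395 to 0.548), and overlaps Csnk1d, with 1544 counts with TSA + phenamil and 1342 with TSA. Neither overlapping gene was lower. Pkm, the last enzyme of glycolysis, had 255, 354, 313 and 282 CPM in the same order, a ratio of 0.719 (0.683 to 0.756).

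The lower genes ran along the pathway, from Gpi, Pfkl and Pfkp through Tpi1, Gapdh, Pgk1 and Pgam1 to Eno1, Pkm and Ldha. Ldha, lactate dehydrogenase A, had 87.2 CPM with TSA + phenamil, 124 CPM with TSA, 103 CPM in the senescent control and 70.6 CPM in the young control, a ratio of 0.703 (0.645 to 0.767). Egln1, a prolyl hydroxylase that senses oxygen and is itself a hypoxia target, had 11.4, 17.2, 16.2 and 14.4 CPM, a ratio of 0.663 (0.521 to 0.842). The 2 higher members were Pfkfb3, an activator of glycolysis, at 1.38 (1.11 to 1.71), and Vegfa, the angiogenic hypoxia target, at 1.22 (1.05 to 1.41). The hypoxia targets Bnip3, Adm and Ndrg1 had intervals that included no change, so the list did not move as a whole.

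ACGTG is a form of the core that hypoxia-inducible factor binds, and no other form of it was searched. The promoters of 4 of these genes are shown because they are lower with TSA + phenamil and differ in whether they hold ACGTG. The windows run from 250 bases before to 50 bases after the annotated start, from RefSeq on the build GRCr8, 5′ to 3′ along the gene. Capitals mark ACGTG on either strand, that is, ACGTG or its reverse complement CACGT, which overlap in CACGTG.
Ldha, chr1:106507842-106508141, plus strand: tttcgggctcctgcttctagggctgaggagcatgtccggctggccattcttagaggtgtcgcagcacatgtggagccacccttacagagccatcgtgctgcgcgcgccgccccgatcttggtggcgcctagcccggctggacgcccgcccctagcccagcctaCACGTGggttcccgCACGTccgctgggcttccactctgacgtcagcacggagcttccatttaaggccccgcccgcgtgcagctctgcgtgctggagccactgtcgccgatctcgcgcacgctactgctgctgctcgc
Egln1, chr19:69804632-69804931, minus strand: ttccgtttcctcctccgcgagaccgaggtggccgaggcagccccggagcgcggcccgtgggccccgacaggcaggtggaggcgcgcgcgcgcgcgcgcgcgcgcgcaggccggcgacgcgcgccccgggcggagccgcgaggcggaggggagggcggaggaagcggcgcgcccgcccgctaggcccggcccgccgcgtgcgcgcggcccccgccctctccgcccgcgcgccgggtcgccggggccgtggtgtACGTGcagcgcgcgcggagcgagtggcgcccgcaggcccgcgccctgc
Eno3, chr10:55868936-55869235, plus strand: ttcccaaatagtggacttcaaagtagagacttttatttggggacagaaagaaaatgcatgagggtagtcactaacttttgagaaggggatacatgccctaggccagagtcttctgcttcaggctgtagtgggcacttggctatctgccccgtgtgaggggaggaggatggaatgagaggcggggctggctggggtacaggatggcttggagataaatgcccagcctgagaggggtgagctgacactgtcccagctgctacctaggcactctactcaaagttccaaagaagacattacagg
Slc16a3, chr10:106712078-106712377, plus strand: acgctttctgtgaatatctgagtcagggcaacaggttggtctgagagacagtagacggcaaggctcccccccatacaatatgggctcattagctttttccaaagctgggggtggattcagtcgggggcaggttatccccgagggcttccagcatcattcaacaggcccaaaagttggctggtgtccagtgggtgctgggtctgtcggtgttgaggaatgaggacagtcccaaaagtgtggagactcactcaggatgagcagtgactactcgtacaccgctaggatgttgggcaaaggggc

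The core was present in the windows of Ldha and Egln1 and not in those of Eno3 and Slc16a3, the pair of genes with the lowest ratios. Promoter windows were found for 28 of the 32 genes. The core was held by 16 of them (57.1%), against 25.8% of the 9856 compared genes with a window and 19.7% of all 27457 windows. Among the lower genes 10 of 18 held it, among the higher 1 of 2, and among the rest 5 of 8, so the share hardly separated lower members from the rest of their own list. This motif was 1 of 5 searched on both strands, each in 1 list. The CArG box was held by 2 of 13 contractile promoters (1.34% of compared genes), TGGGAA by 6 of 10 Notch promoters (22.6%), TCACNCCAC by 0 of 17 cholesterol synthesis promoters (1.13%) and TGGCGCC by 2 of 11 BMP target promoters (7.43%). The motifs and the promoters shown were chosen after the values of the lists had been seen.

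Lipid synthesis genes were also lower where they differed. Of 24 genes of cholesterol synthesis, 12 were lower and none higher by the interval rule, with a median log2 ratio of -0.21. Over all genes 17.1% were lower and 16.6% higher. Acat2, the thiolase at the start of the pathway, had 58.6 CPM with TSA + phenamil, 84.99 CPM with TSA, 84.7 CPM in the senescent control and 61.9 CPM in the young control, a ratio of 0.689 (0.620 to 0.766). Insig1, which holds the sterol sensor in the endoplasmic reticulum, stood at 0.727 (0.650 to 0.813) and the sterol carrier gene Stard4 at 0.613 (0.437 to 0.855). The regulator gene Srebf2, at 1.02 (0.920 to 1.14), had an interval that included no change. Of 14 genes of fatty acid synthesis, 6 were lower and none higher, with Scd, a stearoyl-CoA desaturase gene, at 0.651 (0.559 to 0.758) and Acly at 0.861 (0.785 to 0.945).

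Transcripts of the mitochondrial genome and nuclear genes of the respiratory chain stood on opposite sides. Over all genes 16.6% were higher and 17.1% lower. Of 13 mitochondrially encoded messenger RNAs, 11 were higher and 1 lower, with a median log2 ratio of 0.27. They summed to 69960 CPM with TSA + phenamil, 59920 CPM with TSA, 56650 CPM in the senescent control and 53810 CPM in the young control, so that the TSA + phenamil library was the highest and the young control the lowest. ATP8, a small subunit of ATP synthase, stood at 1.66 (1.601 to 1.73), and ND2, of complex I, at 1.43 (1.41 to 1.45), whereas COX1 stood at 0.977 (0.968 to 0.987). ATP8 overlaps ATP6, and ND4L overlaps ND4, so their reads can be split between partners. Mitochondrial ribosomal RNA took 4.07% of counts with TSA + phenamil, 3.41% with TSA, 4.27% in the senescent control and 3.99% in the young control. These shares moved with the mitochondrial messenger RNAs between both libraries of the pair, and their part in the result was not tested.

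Of 40 nuclear genes of the respiratory chain, 22 were lower and 1 higher, with a median log2 ratio of -0.14. Over all genes 17.1% were lower and 16.6% higher. Uqcrc1, a core subunit of complex III, stood at 0.711 (0.651 to 0.777), Ndufb5 at 0.783 (0.729 to 0.841) and Ndufa4 at 0.793 (0.754 to 0.833), and Ndufv2 was the higher one at 1.20 (1.11 to 1.30). Ndufb5 overlaps Mrpl47, which had 156 counts with TSA + phenamil and 193 with TSA. Proteasome subunits included 19 lower members and 1 higher one among 31 compared (median log2 ratio -0.14), with Psma6 at 0.766 (0.701 to 0.838). Cytosolic ribosomal protein genes included 50 lower members and 6 higher ones among 77 compared, with a median log2 ratio of only -0.09 and Rps28 at 0.831 (0.812 to 0.851). Antioxidant genes of the NRF2 response included 14 lower members and 5 higher ones among 30 compared, with Nqo1, a quinone reductase gene, at 0.685 (0.644 to 0.727) and the glutathione peroxidase gene Gpx1 at 0.775 (0.746 to 0.804). Nqo1 had 175 CPM with TSA + phenamil, 255 CPM with TSA, 188 CPM in the senescent control and 170.0 CPM in the young control, which placed the TSA library above 3 similar values. Among genes of any kind with at least 1000 counts in the pair, 29.4% were lower and 24.9% higher, 54.3% in all.

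Direction moved with the genomic span of genes. In 5 equal bins of 12007 genes with a known span, the share called higher was 9.41%, 12.2%, 14.7%, 19.5% and 27.2% from the shortest to the longest, and the share called lower 24.4%, 20.2%, 17.2%, 13.7% and 10.8%. The median log2 ratio was -0.07 in the shortest bin, with a median span of 3.89 kb, and 0.10 in the longest, with a median span of 123 kb. Spans came from the build GRCr8, which is not the build of the counts. Centring each ratio on genes of like span, an alternative chosen after seeing the data, brought the median of ribosomal protein genes to -0.02 and that of the nuclear respiratory chain to -0.10. The medians became 0.28 for collagens, 0.39 for basement membrane genes, 0.36 for contractile genes, 0.45 for Notch genes and -0.25 for glycolysis and hypoxia genes. The median span was 108.5 kb for basement membrane genes, 77.9 kb for collagens and 3.11 kb for ribosomal protein genes. The part of span in these results was not tested beyond this.

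**Figure D4:**
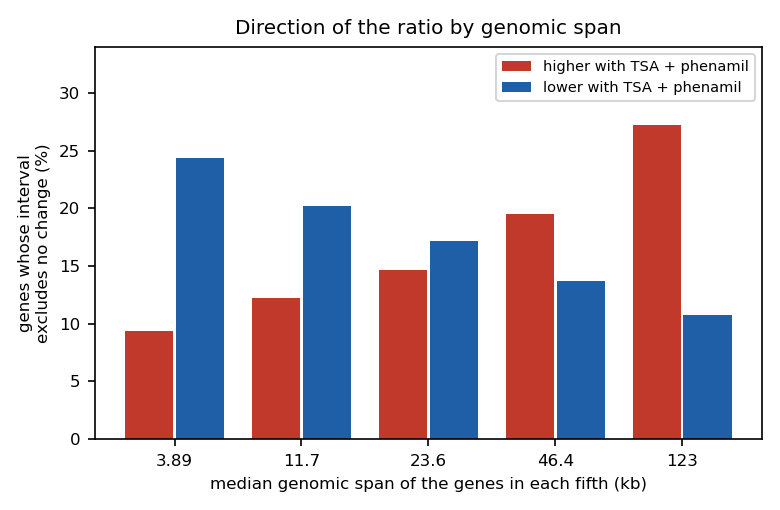
Share of genes (%) whose interval excludes no change, higher or lower with TSA + phenamil than with TSA, in 5 bins of genomic span; the horizontal axis gives the median span of each bin (kb). The higher share runs upward from 9.41% to 27.2% with span, and the lower share downward from 24.4% to 10.8%.

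Senescence genes did not lean one way. Of 20 compared, 5 were higher and 4 lower, beside 16.6% higher and 17.1% lower over all genes. Their median log2 ratio was -0.01. Cdkn1a, which encodes the cell cycle inhibitor p21, had 203 CPM with TSA + phenamil, 225 CPM with TSA, 234.5 CPM in the senescent control and 237 CPM in the young control, a ratio of 0.900 (0.848 to 0.955). Cdkn2b, the p15 inhibitor, stood at 0.744 (0.687 to 0.806), Cdkn2a at 0.920 (0.659 to 1.28) and the nuclear lamina gene Lmnb1, which is low in many senescent cells, at 1.04 (0.893 to 1.22). Secreted factors of the senescent phenotype included 5 lower members and no higher one among 12 compared by the interval rule, with Mif at 0.846 (0.809 to 0.885) and Csf1 at 0.832 (0.763 to 0.906) next to Areg. The interleukin gene Il6 stood at 1.25 (0.765 to 2.06), and the chemokine gene Ccl2 had 8, 18, 6 and 7 counts. Mitosis genes included 8 higher members and 4 lower ones among 28 compared, beside the same shares over all genes. Cenpe stood at 1.46 (1.27 to 1.67), and the kinase gene Aurkb at 0.538 (0.382 to 0.753).

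The machinery that TSA targets was compared because both libraries of the pair received TSA. Of 30 genes of histone deacetylation and acetylation, 9 were higher and 2 lower, with a median log2 ratio of 0.10. Over all genes 16.6% were higher and 17.1% lower. Hdac5 at 1.52 (1.24 to 1.87) and Hdac7 at 1.30 (1.18 to 1.43), both class II deacetylases, were higher, and the class I genes Hdac1 at 0.840 (0.770 to 0.916) and Hdac3 at 0.809 (0.682 to 0.959) were lower. The class I gene Hdac2, chosen after its value was seen, was higher at 1.16 (1.06 to 1.27). Genes known to respond to deacetylase inhibitors included 8 lower members and 2 higher ones among 17 compared, with a median log2 ratio of -0.15. H1f0, a linker histone gene commonly raised by such inhibitors, had 129 CPM with TSA + phenamil, 138 CPM with TSA, 126 CPM in the senescent control and 118 CPM in the young control, a ratio of 0.939 (0.871 to 1.01). Hdac5 had 23.6 CPM with TSA + phenamil, 15.5 CPM with TSA, 20.3 CPM in the senescent control and 24.9 CPM in the young control.

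**Figure D5:**
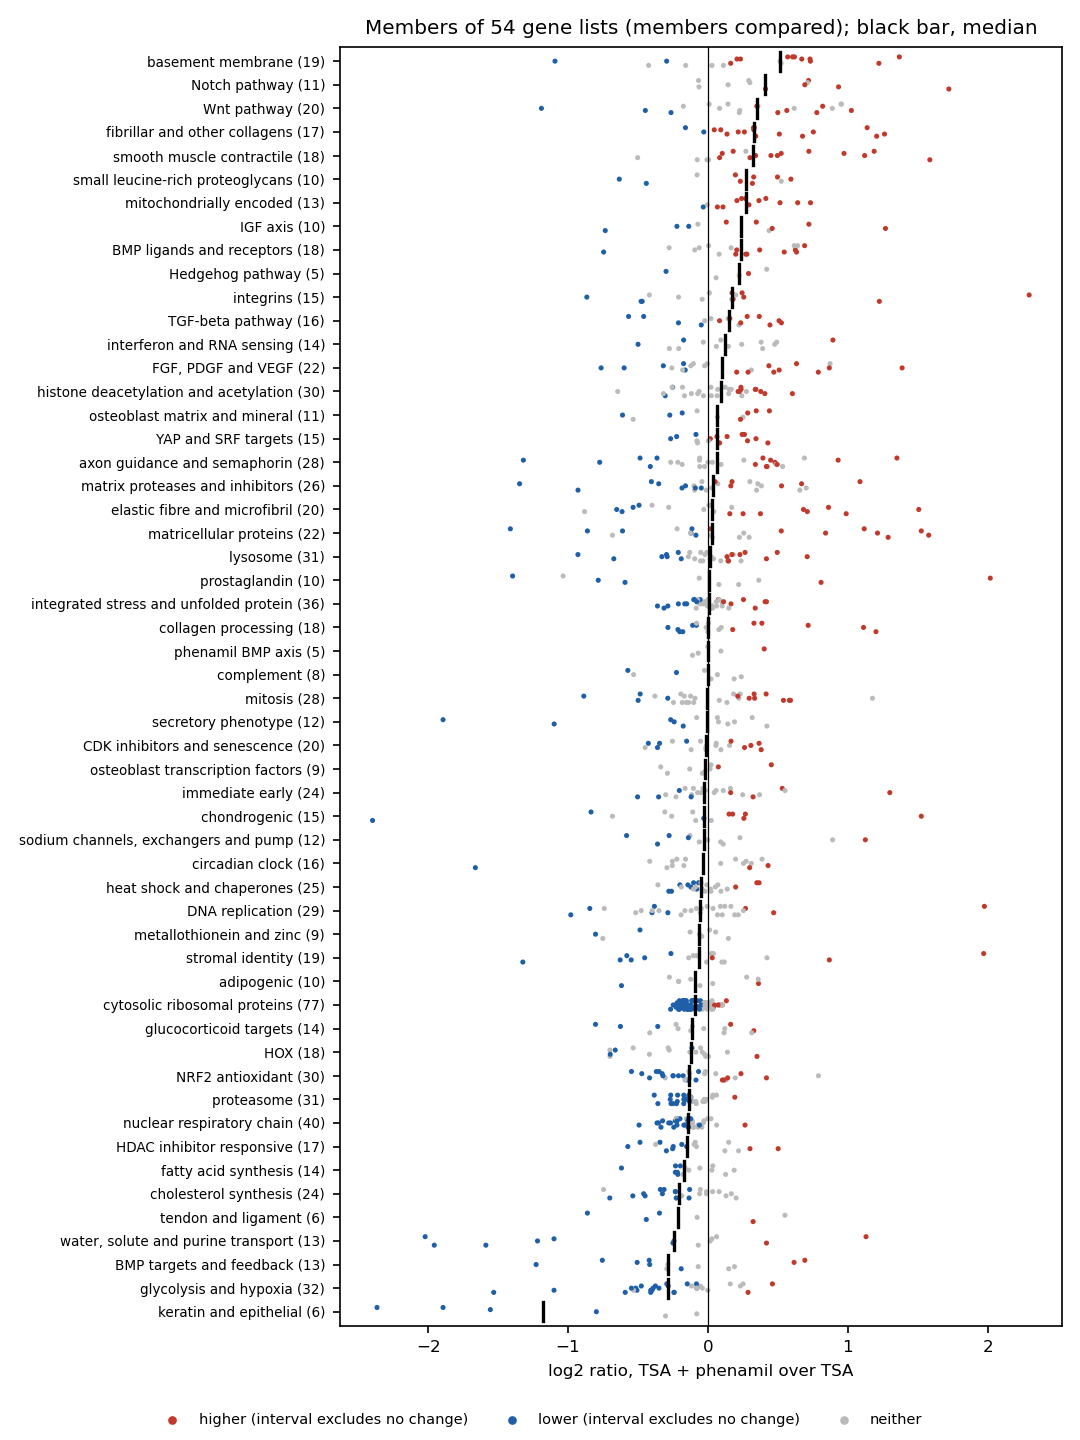
Log2 ratios of TSA + phenamil over TSA for the compared members of 54 gene lists, sorted by median (black bar), 1 point per gene; red points are higher and blue points lower by the interval rule, grey points neither. Basement membrane, Notch, Wnt and collagen genes lie at the top, and keratin, glycolysis and BMP target genes at the bottom. The lists were chosen with earlier results of these data known.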

How the data were processed

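Gene expression was measured in 4 libraries, 1 per condition, of rat femur mesenchymal stem cells, prepared, per the labels' protocols, with a QuantSeq FWD kit that reads mRNA 3' ends. The submitters' processing notes list HTSeq 2.0.2, STAR 2.7.10b and the rat build mRatBN7.2 without their roles. The sources used here state neither the annotation, nor strand use, nor how duplicates were handled. The deposited table holds raw counts per gene, per the file headers. The deposited log2 values are normalized data per the file headers, and when checked, each matched log2(count/factor + 1), with a single factor for each library, to within 0.000532. Reads may be PCR copies of 1 molecule, so intervals and the floor of 3 counts cover counting error only.

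TMM scaling used edgeR 4.0.16 (R 4.3.3). Its quasi-likelihood test was left out because single libraries leave no residual degrees of freedom. A gene needed 40 counts summed over the libraries. Ratios carry exact (Clopper-Pearson) conditional binomial 95% intervals computed in Python 3.11.15 with pandas 2.3.3, numpy 2.4.6 and scipy 1.17.1, log2 ratios a prior count of 0.5, and figures were drawn with matplotlib 3.10.9. The ratio and interval computation was tested on simulated counts. Alternatives were total counts, size factors from DESeq2 1.42.0, TMM leaving out ribosomal protein and mitochondrial genes, a filter of 200 counts or none, 99% intervals, a prior of 2, the deposited log2 values and centring by gene span.

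The decision to describe this pair, the 54 pathway lists, the 11 marker lists and the 30 single genes of interest were chosen with earlier results of these data known. The named genes are up to 15 per direction with at least 100 counts in the pair, those beyond 2-fold and then beyond 1.5-fold, ranked by whichever interval bound lay closer to 1, at most 3 members from each list and direction with an interval excluding 1, and the single genes of interest. Other list members named as examples were chosen after their values were seen. Of 257 named genes found in the GRCr8 table, 89 overlap another annotated gene, 15 of them among the 30 ranked ones. For those of the 89 reported here, partners with at least 100 counts in the pair are named. The other list members named as examples were not looked up for overlaps. Some results for single genes are not reported here.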

Additional observations from a re-analysis of the deposited data

How the results depend on the processing

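The counts of genes moved with the filter and the interval, in part because fewer or more genes were tested. With no filter on counts, 50 were higher and 44 lower beyond 2-fold, and 167 lower beyond 1.5-fold. With a filter of 200 counts 9 were higher and 8 lower beyond 2-fold, and 66 higher and 54 lower beyond 1.5-fold. With 99% intervals 5 were higher and 14 lower beyond 2-fold, so that the lower genes outnumbered the higher ones there, 70 higher and 56 lower beyond 1.5-fold, and 1348 higher and 1412 lower by the interval alone. Under DESeq2 size factors and TMM without mitochondrial and ribosomal protein genes, all 6 counts stayed within 1.5 times the reported ones, as they did under total counts and span centring. Of 255 named genes, 18 moved by more than their counting interval under total counts and 33 under span centring; the log2 ratio of Vim, 0.03 as scaled here, turned to -0.0057 under total counts. Of 54 list medians, that of ribosomal protein genes became -0.13 under total counts. No paired analysis was possible because each group is 1 library. At this depth a gene near 40 counts shows only several-fold differences.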

Other observations

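Low-count genes beyond 2-fold, chosen by their values, included receptors and channels. Ret, the receptor of glial-derived neurotrophic factors, had 3 counts with TSA + phenamil, 29 with TSA, 8 in the senescent control and 5 in the young control. Kcnn4, a calcium-activated potassium channel gene, had 9, 49, 21 and 15 counts in that order. On the higher side the leptin receptor gene Lepr had 43, 10, 24 and 44 counts, Ramp1, which encodes a partner of the calcitonin receptor-like receptor, 72, 19, 28 and 58, and the estrogen-responsive receptor gene Gper1 59, 15, 27 and 44. For Ret and Kcnn4 the TSA library was the highest of the 4, and for the 3 other genes the lowest. Nfe2l3, a relative of NRF2, had 13, 0, 10 and 18 counts.

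Signals outside bone and matrix were mixed. Over all genes 16.6% were higher and 17.1% lower. HOX genes, which record position along the body, included 1 higher and 3 lower members among 18 compared. The lower ones made up 16.7%, near the share over all genes. Axon guidance genes included 9 higher and 5 lower members among 28 compared, with the semaphorin receptor gene Nrp1 at 1.39 (1.21 to 1.61) and the semaphorin gene Sema3c at 0.752 (0.695 to 0.813). Prostaglandin genes held Ptgs2, the inducible cyclooxygenase, at 0.580 (0.497 to 0.676), and Hpgd, which inactivates prostaglandins, at 1.76 (1.17 to 2.702). Hpgd had 6.57 CPM with TSA + phenamil, 3.73 CPM with TSA, 10.5 CPM in the senescent control and 5.23 CPM in the young control. Glucocorticoid targets included 2 higher and 3 lower members among 14 compared, 14.3% and 21.4%, near the shares over all genes. Among the lower were the metallothionein gene Mt2A at 0.573 (0.486 to 0.674) and the kinase gene Sgk1 at 0.648 (0.5495 to 0.763). For both the TSA library was the highest of the 4: Mt2A had 22.9, 39.9, 23.4 and 24.3 CPM with TSA + phenamil, with TSA, in the senescent control and in the young control.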
